A study of Mus musculus with 2 samples.

Results

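Vascular endothelial growth factors (VEGFs) and their receptors were read from microarrays of untreated and IL-4-treated bone marrow-derived macrophages (BMDMs). The group holds 9 genes of the 20656 genes that could be named on the array. The receptors are Flt1, Kdr and Flt4, the co-receptors are Nrp1 and Nrp2, and the ligands are Vegfa, Vegfb, Vegfc and Pgf. Members were matched through the RefSeq accession of each probe, and 12 of 39424 probes belonged to them. The family was chosen by its biology and selected on the measured difference of Flt1 between these arrays, so the values below describe that difference and do not test it. Donor mice were male, 8 weeks of age and of the Crif1 f/f genotype, and their marrow was cultured for 7 days with M-CSF, the growth factor that drives macrophage differentiation. Both groups thus carried floxed alleles of Crif1, a mitoribosomal factor, and the methods name no Cre for these cells. One group was left untreated and the other received IL-4 for 18 h. There was 1 array per group, and the number of mice behind each RNA sample and the IL-4 dose are not given in the sources used here. Spots well above background made up 59.8% of the untreated and 57.4% of the IL-4 array, and 0 were saturated. No test between groups was therefore possible, the number of arrays limits the precision, and no difference has a replicate check.

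VEGF ligands are secreted dimers that bind receptor tyrosine kinases and control the growth and permeability of blood and lymphatic vessels. Kdr is the main signalling receptor for Vegfa on endothelial cells. Flt1 binds Vegfa, Vegfb and Pgf, is made both as a membrane receptor and as a secreted form that traps ligand, and on monocytes and macrophages is known for chemotaxis toward these ligands. Flt4 binds Vegfc and is best known from lymphatic endothelium, and the neuropilins Nrp1 and Nrp2 bind both VEGFs and class 3 semaphorins. IL-4 acts on macrophages through the transcription factor STAT6 and drives them toward the M2 state.

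Flt1 had 1 probe, A_51_P398723, and was the member with the largest difference between the arrays. Its promoter is shown first, and any link of its sequence to that difference was not tested. RefSeq start sites of GRCm38.p6 gave 11 windows for the 9 members, and the 250 bases before each start site were searched on both strands. The Flt1 window, chr5:147726012-147726261 on the minus strand, was the only member window with the TATA box letters TATAAA and the only one with the cyclic AMP response element TGACGTCA. Both are in capitals here, and the windows of Kdr (chr5:75978456-75978705, minus strand) and Vegfc (chr8:54077282-54077531, plus strand) are set beside it as the most closely related receptor and the ligand with the largest difference.

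Flt1: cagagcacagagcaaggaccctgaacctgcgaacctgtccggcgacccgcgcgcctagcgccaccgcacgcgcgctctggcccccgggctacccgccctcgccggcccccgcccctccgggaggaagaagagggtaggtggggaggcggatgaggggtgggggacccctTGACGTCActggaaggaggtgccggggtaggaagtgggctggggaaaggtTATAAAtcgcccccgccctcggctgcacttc
Kdr: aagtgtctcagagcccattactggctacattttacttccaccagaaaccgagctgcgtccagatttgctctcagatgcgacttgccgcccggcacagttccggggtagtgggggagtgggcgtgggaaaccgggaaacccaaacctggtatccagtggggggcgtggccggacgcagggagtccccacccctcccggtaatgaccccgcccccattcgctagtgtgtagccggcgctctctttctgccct
Vegfc: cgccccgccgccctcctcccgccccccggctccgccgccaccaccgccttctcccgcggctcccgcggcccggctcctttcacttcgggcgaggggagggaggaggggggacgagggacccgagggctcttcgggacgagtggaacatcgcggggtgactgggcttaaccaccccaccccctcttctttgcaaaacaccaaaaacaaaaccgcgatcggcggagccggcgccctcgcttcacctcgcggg

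In the Flt1 window TATAAA lay 31 to 26 bases and TGACGTCA 81 to 74 bases before the start site, and they did not overlap. Over all 32851 RefSeq windows of the same length, 12.4% held TATAAA and 1.55% held TGACGTCA. The STAT palindrome TTCNNNGAA and the STAT6 palindrome, whose spacer between TTC and GAA is 1 base longer, were in 0 of the 11 member windows, where 7.02% and 5.85% of all windows held them. That says only that these letters are not within 250 bases. The core letters of the hypoxia response element, ACGTG or GCGTG, were in 7 member windows, 1 each for Flt1, Kdr, Nrp1, Nrp2, Vegfa, Vegfb and Pgf, and in 38.6% of all windows. Vegfa and Pgf each had a further window without these letters. For Vegfa, on the minus strand, they were in chr17:46025164-46025413, before a start site inside the gene. They were not in chr17:46032378-46032627, the window further upstream. Vegfa is thus counted through an internal start site only. Member windows were rich in G and C, from 59.2% to 76.4% with 70.4% for Flt1, while the median of all windows was 52.4%.

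On the untreated array the background-subtracted intensity of Flt1 was 305, with an error of 31.2 estimated by the scanner software. On the IL-4 array it was 6029, with an error of 603. The spot was well above background by the software's flag on both arrays and was neither saturated nor an outlier. Flt1 was thus detected in untreated BMDMs, and its intensity after IL-4 lay far outside the software's error of the untreated value. To compare arrays, the log2 intensity of each probe was taken and the 75th percentile of its array subtracted, which was 9.84 for untreated and 9.94 for IL-4-treated BMDMs. On this scale the log2 difference, IL-4 minus untreated throughout, was 4.21 for Flt1, an 18.5-fold higher signal. Probes printed in 10 spots gave the spot error. Over 81 such probes within 1 log2 unit of the mean of Flt1's 2 scaled signals, the log2 difference varied from spot to spot with a median SD of 0.058. The signals themselves were -1.59 untreated and 2.62 after IL-4, so this SD was taken at the level of neither. At the dimmer level of Pgf it was 0.091. The spot error holds the spots of these 2 arrays and not the spread between cultures. Of the 12744 genes measured on both arrays, 7 had a larger difference than Flt1. The 5 genes with the nearest differences, over these 2 arrays alone, were Batf3 at 4.23, Socs1 at 4.37, Rnase2a at 3.91, Clec10a at 3.90 and Gatm at 3.87.

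**Figure D1:**
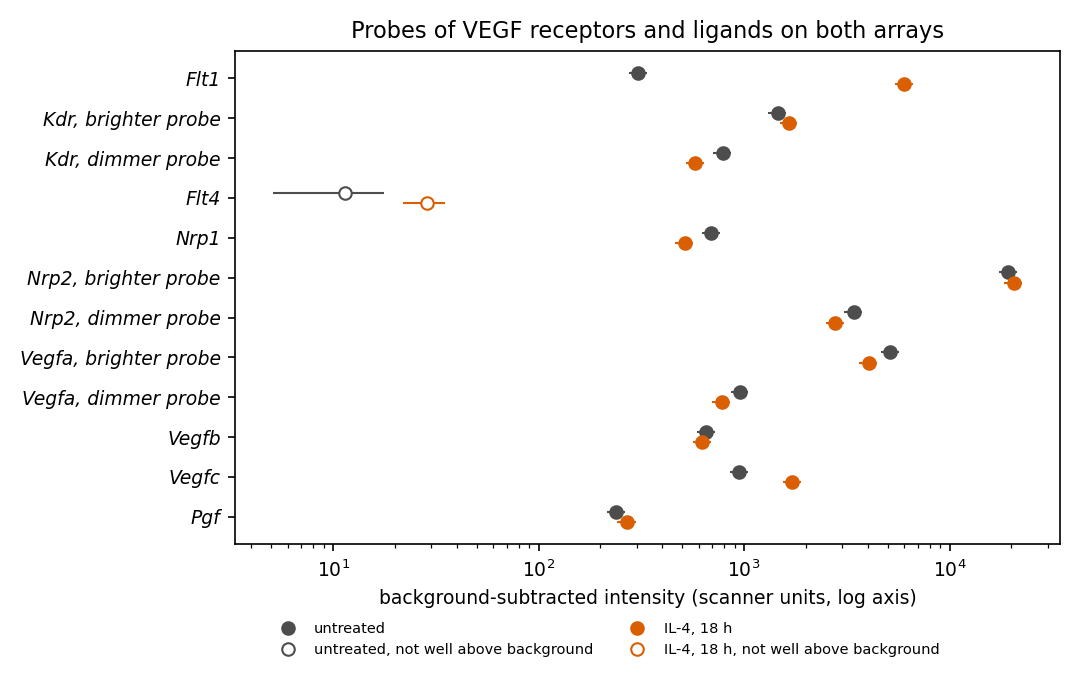
Background-subtracted intensity (scanner units, log axis) of the 12 probes of the 9 genes on the untreated (grey) and IL-4 (orange) array, 1 array each. Bars are the error estimated by the scanner software and open circles are signals not well above background. Flt1 went from 305 to 6029, and Vegfc from 947 to 1717, while the other detected probes differed by a smaller fold than Vegfc.

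Kdr, the closest relative of Flt1 in the family, was read by a pair of probes for the same transcript accession whose differences did not match. The brighter probe, A_55_P2094469, had 1 spot, with an intensity of 1460 untreated and 1652 after IL-4 and overlapping software errors of 146 and 165. Its log2 difference of 0.08 was of the size of the spot error, 0.058. The dimmer probe, A_51_P316553, was printed in 10 spots, so its spread was measured directly. Its untreated spots ran from 713 over a median of 793 to 857, and its IL-4 spots from 556 over a median of 575 to 609. The spots of the arrays did not overlap, and all 10 spots were lower after IL-4, with a scaled log2 difference of -0.54 and an SD of 0.040 between spots. The gap between the Kdr probes was 0.62 on the log2 scale, against a combined spot SD of 0.085. Of 3292 genes with at least 2 probes well above background on both arrays, 6.99% had a gap at least as large, and 29.2% had probes of opposite sign. In genes with more than 2 such probes the gap ran from the highest to the lowest, so it can be wider than between a pair. The position of each probe within the transcript was not analysed here, so the difference of Kdr has no single value.

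**Figure D2:**
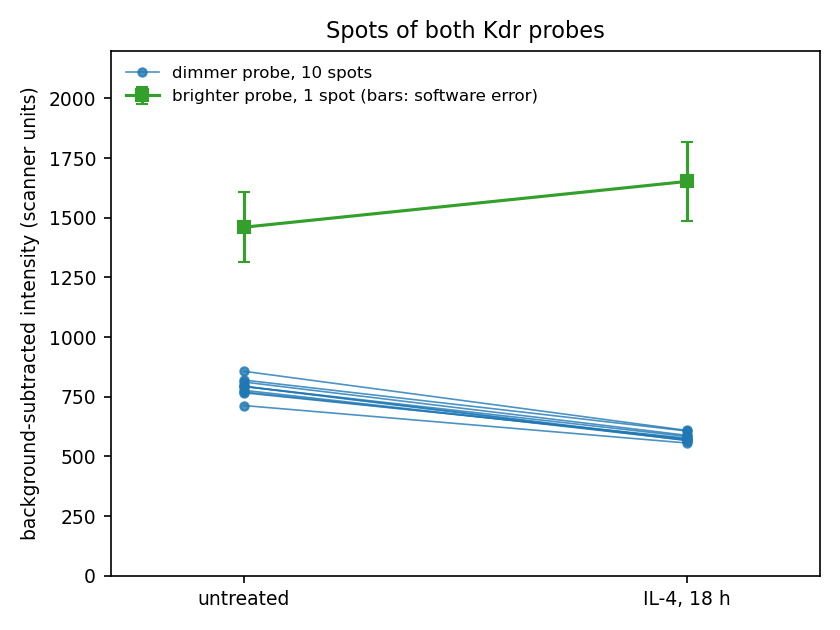
Background-subtracted intensity (scanner units, axis from 0) of the 10 spots of the dimmer Kdr probe (blue, each line 1 spot position) and of the single spot of the brighter Kdr probe (green, bars are the software's error) on the untreated and the IL-4 array. All 10 blue lines go down, from a median of 793 to 575, and the green line goes from 1460 to 1652.

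Flt4 was the member that could not be measured. Its intensity was 11.4 on the untreated and 28.5 on the IL-4 array, with software errors of 6.29 and 6.52. Neither signal was flagged as well above background, so no fold is given. The lowest intensity that carried this flag was 29.2 on the untreated and 27.9 on the IL-4 array.

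The neuropilins lay at or below 0, and the sign of the brighter Nrp2 probe moved with the scaling. Nrp1 had an intensity of 693 untreated and 515 after IL-4, a log2 difference of -0.53 with a median spot SD of 0.061 at that signal, or a 1.44-fold lower signal. Nrp2 was read by a brighter probe listed under NM_001077403 and a dimmer one under NM_001077406, which are different transcripts of the gene. The brighter probe had intensities of 19340 and 20524, and its log2 difference of -0.01 was smaller than the spot error of 0.045. The dimmer probe had intensities of 3421 and 2784, a log2 difference of -0.40 with a spot error of 0.053. The gap between them was 0.38, and 16.4% of the genes with several probes had one as large, taken from their highest to their lowest probe. Whether a probe reads a single Nrp2 transcript was not analysed here.

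Among the ligands, Vegfc had the largest difference. Vegfc, a ligand of Flt4 known for lymphatic vessel growth, had an intensity of 947 untreated and 1717 after IL-4, with software errors of 94.9 and 172. Its log2 difference was 0.76, a 1.69-fold higher signal, with a spot error of 0.058. Of the genes measured on both arrays, 456 had a larger difference. Vegfc stayed below the 2-fold limit used here, while its untreated and IL-4 intensities were further apart than the software's errors.

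Vegfa, the hypoxia-regulated ligand of Flt1 and Kdr, was lower after IL-4 at both of its probes. The brighter probe went from 5139 to 4034, a log2 difference of -0.45, and the dimmer one from 954 to 779, a difference of -0.39, with spot errors of 0.050 and 0.061. The difference of the brighter probe minus that of the dimmer one was -0.06, within the combined spot SD of 0.079, so they could not be told apart at that error. Vegfb and Pgf bind Flt1 and not Kdr. Vegfb had intensities of 654 and 624 and a log2 difference of -0.17. Pgf had intensities of 239 and 270 and a log2 difference of 0.07 that was smaller than its spot error of 0.091. For Vegfb and Pgf the software's errors on the 2 arrays overlapped, and their signs moved with the scaling or background correction.

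Of the 8 members well above background, read from the brightest probe, 1 passed the 2-fold limit upward, which was Flt1, and 0 passed it downward. The background was 14073 named genes measured on 1 or both arrays, of which 3.06% passed the limit upward and 3.35% downward, a gene on 1 array counting at its bound. The count of members rests on the difference of Flt1 that selected them, and nothing is read from it. The other 7 measured members lay between -0.53 and 0.76, and the median of the 8 was 0.03, beside -0.01 for all genes on both arrays. The 5th and 95th percentiles of those genes were -0.60 and 0.59, so Flt1 and Vegfc lay above this range and Nrp1 and Vegfa within it. The balance of changed genes depended on the scaling and on genes counted at a bound. Here 431 genes were higher and 472 lower, but 295 and 184 among genes on both arrays only. The counts were 396 and 543 when the percentile came from probes that both arrays measured, and 628 and 299 with median scaling. They were 571 and 308 with quantile normalization, 514 and 347 with cyclic loess, 517 and 377 without scaling, and 716 and 259 with spike-in scaling.

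**Figure D3:**
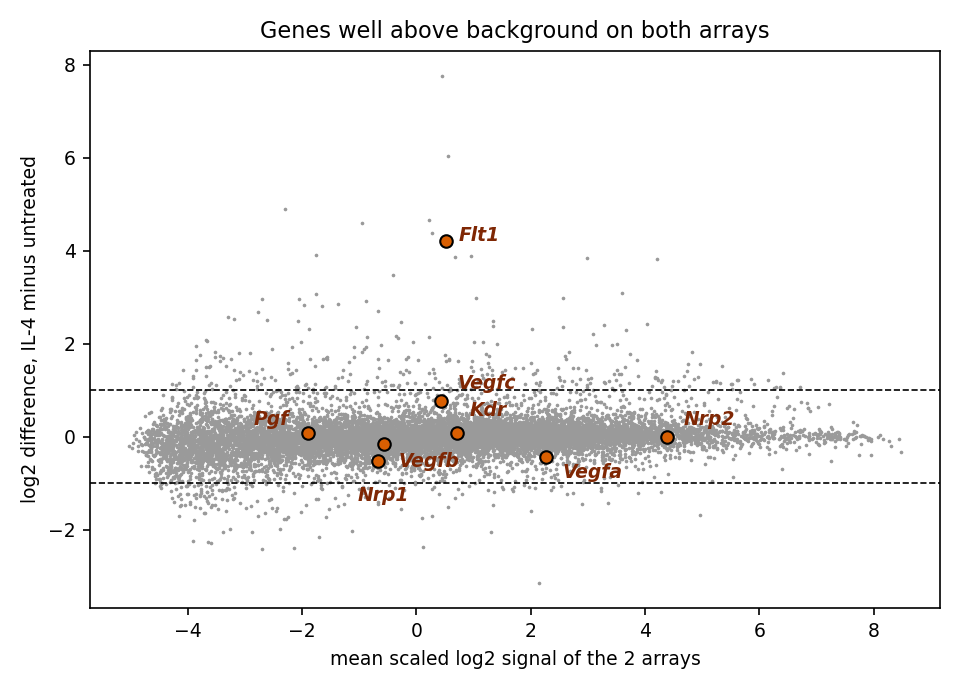
Log2 difference (IL-4 minus untreated) against the mean scaled log2 signal for 12744 genes with signals well above background on both arrays (grey points, 1 array per group). Orange points are the 8 measured members at their brightest probe and dashed lines mark 2-fold. Flt1 at 4.21 stands above the cloud, Vegfc at 0.76 at its upper edge, and the other members inside it.

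The direction of small differences moved with the scaling, so each probe was followed through 10 settings of scaling, background correction, flagged spots and source of values. Across all genes the median was -0.01, but 0.20 under median scaling and 0.27 when spike-in controls set the scale. Flt1 stayed between 3.86 and 4.49, and Vegfc between 0.68 and 1.04. Both Vegfa probes, the Nrp1 probe, the dimmer Kdr probe and the dimmer Nrp2 probe were below 0 in all 10 settings. The brighter Kdr probe was above 0 in all 10, from 0.02 to 0.36, and its low end was under its spot error of 0.058. Several settings move all probes by the same amount, so equal signs across them are not independent checks. The direction of the brighter Kdr probe therefore stayed unresolved. The signs of Vegfb, Pgf and the brighter Nrp2 probe were not fixed, with Vegfb above 0 in 2 settings, Pgf below 0 in 1 and Nrp2 above 0 in 4. Relative to the median of all genes in each setting, Flt1 was 3.90 to 4.22 higher, Vegfc 0.71 to 0.77 higher, and the brighter Vegfa probe between -0.49 and -0.41.

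**Figure D4:**
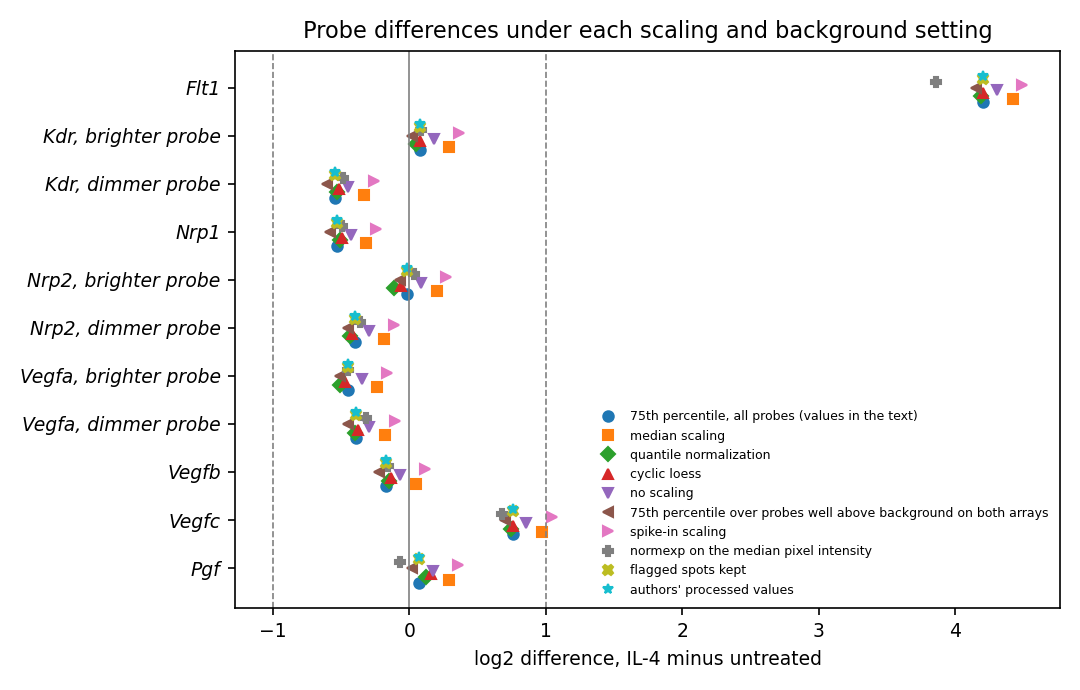
Log2 difference (IL-4 minus untreated) of the 11 detected member probes under 10 settings, 1 symbol per setting, with dashed lines at 2-fold. Flt1 lies between 3.86 and 4.49 under every setting shown, Vegfc between 0.68 and 1.04, and the Kdr probes lie on opposite sides of 0.

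The cells these signals came from were checked on marker genes. IL-4 response markers were all at least 2-fold higher after IL-4, Arg1, an arginase, 216-fold, Chil3, a chitinase-like protein, 14.2-fold, Mrc1, the mannose receptor, 5.33-fold, and Retnla, a resistin-like protein not well above background untreated, at least 595-fold. Of 7 matched macrophage markers, 7 were well above background on both arrays, with intensities for Csf1r, the M-CSF receptor and a distant relative of the VEGF receptors, of 146026 and 166510, and for Adgre1, which encodes F4/80, of 23816 and 28655. Mertk, Fcgr1 and Cd14, an efferocytosis receptor, an IgG receptor and the lipopolysaccharide co-receptor, were at least 2-fold lower, with log2 differences of -1.14, -1.23 and -1.42. Over the 10 settings 1 to 3 macrophage markers passed this limit downward, 2 with median scaling and 1 with spike-in scaling, and the list's median was -0.71. Markers of other cells were present too. All 8 fibroblast and stromal markers were well above background on both arrays, Col1a2 with intensities of 233342 and 234332 and Col1a1 with 58153 and 49150. Their summed signal, each in units of its array's 75th percentile, was 361 untreated and 328 after IL-4, a sum to which Col1a2 gave the most. Among them Lum, a proteoglycan, was highest at 0.52 and Thy1, a surface glycoprotein, lowest at -0.95, and the list's median of -0.12 was 0.10 with median scaling and 0.17 with spike-in scaling. Of 12 endothelial markers 11 were well above background on both arrays, and Tek was on neither. Cdh5, the endothelial cadherin, had intensities of 1048 and 1141. The summed endothelial signal was 18.4 and 19.2, a sum to which Egfl7, with intensities of 8245 and 9323, gave the most. Only Cldn5, a tight junction protein, was at least 2-fold higher among the endothelial markers, with a log2 difference of 1.05, and the median of the 11 was 0.03. All 7 matched neutrophil markers were well above background, with summed signals of 7.65 and 5.42, from Ngp, a granule protein, at -0.80 to Mpo, a peroxidase, at 0.30. The median of the neutrophil list was -0.54, and relative to all genes it lay between -0.55 and -0.44 over the 10 settings. Of 8 lymphocyte markers 2 were well above background, Cd3e, a T cell receptor subunit, at -0.31 and Cd4, a co-receptor, near 0. The summed lymphocyte signals were 1.06 and 0.915. VEGF receptors and ligands are also made by endothelial and stromal cells. By the methods, flow cytometry for CD11b and F4/80 found nearly pure macrophages in such cultures. The part that other cells had in the member signals was not tested. In RNA from a whole culture, a change in the share of a cell type cannot be told apart from a change in RNA per cell.

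Genes that work with the VEGF family were described from fixed lists. Of 12 class 3 semaphorins and plexins, which share the neuropilins with the VEGFs, 10 were well above background and 1 was at least 2-fold higher. That was Sema3c, a secreted guidance cue, with intensities of 94.6 and 221 and a log2 difference of 1.13. Plxnd1, a receptor of class 3 semaphorins in vessels, had 0.80 at its brighter probe. Plxna1, a neuropilin partner, had the lowest difference, -0.51, close to that of Nrp1. The median of the 9 genes on both arrays was -0.03.

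The PDGF family shares its cystine knot fold with the VEGFs, and its receptors are related kinases. Of 13 genes of this list, which includes the ligand and receptor pairs of Csf1r, Kit and Flt3, 12 were well above background and 1, Pdgfa, was at least 2-fold higher. Pdgfa, a mitogen for mesenchymal cells, had intensities of 11746 and 29358 and a log2 difference of 1.22, with 1.15 at its other probe. Csf1, the ligand of Csf1r, had 0.92 at its brightest probe and 0.20 at its lowest, and Pdgfrb, a receptor of mural and stromal cells, had the lowest difference, -0.47. The list's median was 0.03. Of the angiopoietins, which act on vessels through the receptor Tek, Angpt2 had the largest difference, 0.73, with intensities of 1671 and 2960, and Angpt1 the lowest, -0.35. Of these 5 genes 4 were well above background, and 0 were at least 2-fold changed.

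Of 37 signal transducers downstream of VEGF receptors, all were measured on 1 or both arrays. The 1 gene at least 2-fold changed was Src, a tyrosine kinase, with an intensity of 111 untreated and 26.7 after IL-4. Its IL-4 signal was not well above background, which leaves a bound of at least 4.26-fold lower. The others lay between -0.80 for Nfatc2, a transcription factor activated by calcineurin, and 0.68 for Ptprj, a receptor phosphatase, with a median of -0.05. Other probes of Shb and Sh2d2a, both adaptor proteins, and of Nfatc2 were not well above background after IL-4 and passed the limit downward at their bounds, which were -1.45 for Sh2d2a, -1.13 for Nfatc2 and lowest for Shb. With the median over a gene's probes 2 transducers passed the limit downward, and 0 among genes on both arrays only. Of 19 genes for VEGF processing, release and extracellular inhibition, 18 were well above background and 0 were at least 2-fold changed. Adamts1, a protease that binds Vegfa, was nearest to the limit, with intensities of 964 and 2050 and a log2 difference of 0.99, and Plat, a plasminogen activator, was lowest at -0.59. The hypoxia list holds the pathway that drives Vegfa and other target genes of that pathway. All 16 of its genes were well above background on both arrays and 0 were at least 2-fold changed. Adm, a vasodilator peptide and hypoxia target, was highest at 0.82 and Egln1, an oxygen sensor, lowest at -0.36. The list's median was 0.16, and 0.16 to 0.19 above the median of all genes over the 10 settings. The list mixes Hif1a with its negative regulators, among them Vhl and Egln1, and with target genes, so this median gives no direction of the pathway. At the brightest probe all target genes were above 0, namely Slc2a1, Ldha, Pgk1, Bnip3, Adm, Ndrg1, Pdk1, P4ha1 and Ankrd37. They ran from 0.08 for Ldha to 0.82 for Adm, while the lowest Bnip3 probe was at -0.34. A link to the Vegfa signal was not tested. Over the 10 settings, counts of genes at least 2-fold higher were 0 to 2 for the semaphorin list, 1 to 2 for the PDGF list, 0 to 1 for the angiopoietins, 0 to 2 for the processing list, 0 to 1 for the hypoxia list and 0 to 1 for the endothelial markers.

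**Figure D5:**
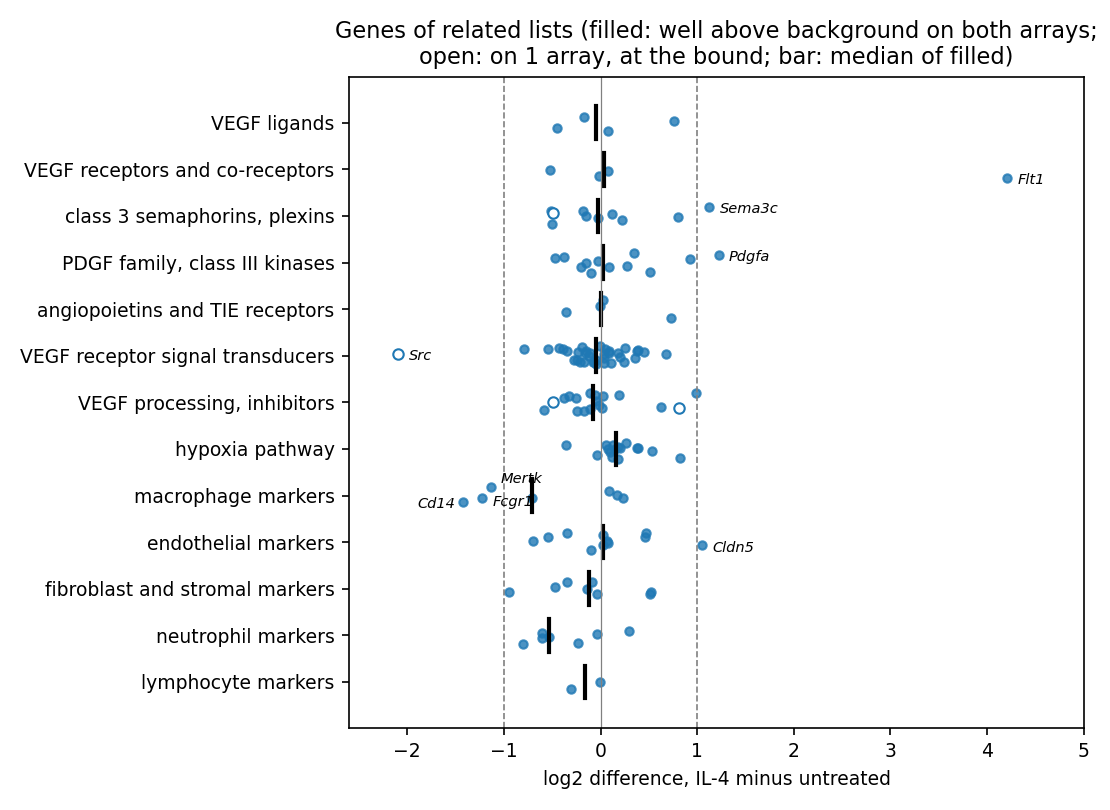
Log2 difference (IL-4 minus untreated) of each gene of 13 lists, the IL-4 response markers left out, 1 row per list and 1 point per gene, with 1 array per group. Filled points were well above background on both arrays, open points on 1 array and placed at their bound, black bars are medians of the filled points, and dashed lines mark 2-fold. Flt1 at 4.21 is the point farthest from 0 among these lists, but not among all genes, and Sema3c, Pdgfa and Cldn5 lie just past the upper line.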

How the data were processed

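RNA of untreated and IL-4-treated BMDMs was labelled with Cy3 and read on 1 single-colour Agilent array per group, both on the same slide. The authors deposited the output of Feature Extraction 10.10.1.1, with a background-subtracted, detrended intensity per spot, not scaled between arrays, and its flags (a score of 0 or 1 per spot). They also deposited a table of log2 values for 39485 probes, with column medians of 0.16 and 0.016, whose scaling and centring are not stated. Its direction was found by comparison with the scanner intensity. Control and outlier spots were left out, log2 values averaged per probe and the 75th percentile of each array subtracted. A probe was well above background when over 50% of its spots were. Where only 1 array was, the difference is a bound against the higher of the dim signal and the lowest detected signal. A gene was read from its brightest probe. The array design was annotated on mm9; names came through RefSeq accessions of GRCm38.p6, used for names and promoter windows, and 27229 of 39424 probes had 1 symbol.

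Genes named by rule are all members, and from each of 14 lists those at least 2-fold changed, or the highest and lowest where there were none. Plxnd1, Plxna1, Csf1, Pdgfrb, Nfatc2, Ptprj, Shb, Sh2d2a, Csf1r, Adgre1, Col1a1, Col1a2, Cdh5 and Tek fall outside this rule and were chosen after their values were seen. The same holds for Egfl7 and the hypoxia targets other than Adm. Members and lists were chosen with earlier results of these data known. Some lists are given by counts alone. The 2-fold calling of probes was run on simulated arrays whose set differences lay well past the limit. That checks the arithmetic and not the reported gene counts. Alternatives were other scalings, normexp with an offset of 50 on the median pixel intensity (the files hold no mean), other filters, cutoffs, probe rules and the deposited log2 table. Normalization ran in limma 3.58.1 under R 4.3.3, and all else in Python 3.11.15 with pandas 2.3.3 and numpy 2.4.6.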

Additional observations from a re-analysis of the deposited data

How the results depend on the processing

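No paired analysis was possible because each group has 1 array, and no replicate could be left out. Flt1, at 4.21, was 3.86 with normexp, 4.31 unscaled, 4.42 with median scaling and 4.49 when 7 spike-in probes set the scale. Members past the 2-fold limit upward, 1 as reported, were 2 with spike-in scaling, where Vegfc passed the limit at 1.04, and 2 with no filter on dim probes, where Flt4 had 1.23. Genes past the limit upward, 431 as reported, were 716 with spike-in scaling, 250 with normexp, 881 with no filter and 174 and 92 at cutoffs of 1.5 and 2. Genes past it downward, 472 as reported, were 299 with median scaling, 308 with quantile normalization, 259 with spike-in scaling, 153 with normexp, 870 in the deposited log2 values without bounds, 184 on both arrays only, 2077 with no filter, and 156 and 47 at the stricter cutoffs. Filters and cutoffs act by their construction, and for the scalings and normexp the cause was not tested. With the median over its probes in place of the brightest, Kdr was -0.23 and Nrp2 -0.21. Of 12 alternatives, Flt1, Nrp1, Vegfa and Vegfc kept their sign in 12, Kdr and Pgf in 11, Vegfb in 10 and Nrp2 in 8. Part of these counts was fixed in advance. Changed filters cannot move a member measured on both arrays, and the median over probes cannot move a gene with 1 probe. Dim signal limits Flt4, which has no fold here.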
